A study of Arabidopsis thaliana with 8 samples.

Results

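Protoderm-like nuclei outside mitosis were 96 of the 534 nuclei retained after depth limits from developing seeds of Arabidopsis thaliana with globular embryos, or 18.0% (exact 95% interval 14.8 to 21.5). The 534 still include nuclei that the study later removed as resembling seed coat, so this is not a share of embryo nuclei. A nucleus was placed among them when at least 3 of 5 protoderm genes had at least 1 count. These genes were PDF1, which encodes a proline-rich protein of the outer layer, ATML1, a homeodomain transcription factor that specifies epidermis, DCR, an acyltransferase of cutin synthesis, BDG1, a hydrolase needed for the cuticle, and FDH, a fatty acid elongase. Nuclei with a count of WOX5, a quiescent center gene, or of TPX2, a spindle assembly factor, were left out. So were nuclei with counts of both CLSY1, a chromatin remodeler, and DML3, a DNA demethylase, and nuclei with at least 2 of the 4 small-protein genes AT3G05460, AT5G63087, AT1G58055 and AT5G54220. The nuclei were chosen by the values of these 13 genes, which are therefore given as a description and were not tested.

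All nuclei came from 1 condition, developing seeds of Col-0 plants carrying pWOX2::H2B-GFP, pWOX2::tdTomato-RCI2b, and there was no treatment or mutant to compare. The WOX2 promoter drives the nuclear GFP used for sorting, and each library is the Smart-seq2 cDNA of 1 nucleus that passed a DAPI gate and a GFP gate. The 744 wells lie on 8 plates of 93, and the plates are the replicates. No label says that plates came from separate plants or harvests, so p-values measure the spread between plates, which may be technical.

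The protoderm is the outermost cell layer of the embryo. It is set aside early, when cells of the embryo proper divide parallel to the surface, and it gives rise to the epidermis. HD-ZIP IV transcription factors such as ATML1 and PDF2 bind the L1 box, an 8-base element in promoters of epidermal genes. The layer makes the cuticle, a cutin polyester with waxes built from very-long-chain fatty acids, and lipid transfer proteins and ABC transporters of the G subfamily act in the export of such lipids.

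The L1 box is shown here because it is the sequence through which ATML1 and PDF2 act. It was searched as TAAATGTA or TAAATGCA on either strand, from 250 bases before to 50 bases after each annotated gene start of TAIR10.1 (RefSeq). PDF1 and FDH of the 5 rule genes held 1 match each, and so did AT1G71691, which encodes a GDSL-like lipase and comes up in the comparison with marker-poor nuclei. The matches, in capitals with 10 bases on each side and written 5′ to 3′ along the gene, lie at chr2:17827601-17827628 for PDF1, chr2:11173315-11173342 for FDH and chr1:26951593-26951620 for AT1G71691, all 3 genes being on the minus strand:
PDF1: tgggatagtgTAAATGCAcctgcaacac
FDH: aaaattgtaaTAAATGCAaacataagat
AT1G71691: gacggataaaTACATTTAttactcttca
The PDF1 match began 30 bases inside the gene, the FDH match 54 bases before its start and the AT1G71691 match 63 bases before, there on the opposite strand. Of 27443 protein-coding nuclear genes, 5.10% held a match in the same window. ATML1, DCR and BDG1 had none in this window.

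Protoderm-like nuclei were present on every plate. Plates 1 to 8 held 13, 8, 12, 8, 8, 11, 20 and 16 of them. Their share of the retained nuclei was lowest on plate 4, at 9.64% (exact 95% interval 4.25 to 18.1), and highest on plate 8, at 27.1% (16.4 to 40.3). These intervals overlap, which does not show that the shares were alike. The intervals cover the error of counting nuclei only. Summed over the protoderm-like nuclei, a plate gave 3310400 to 11699451 counts, and the median nucleus had 526446 counts and 2431.5 detected features.

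**Figure D1:**
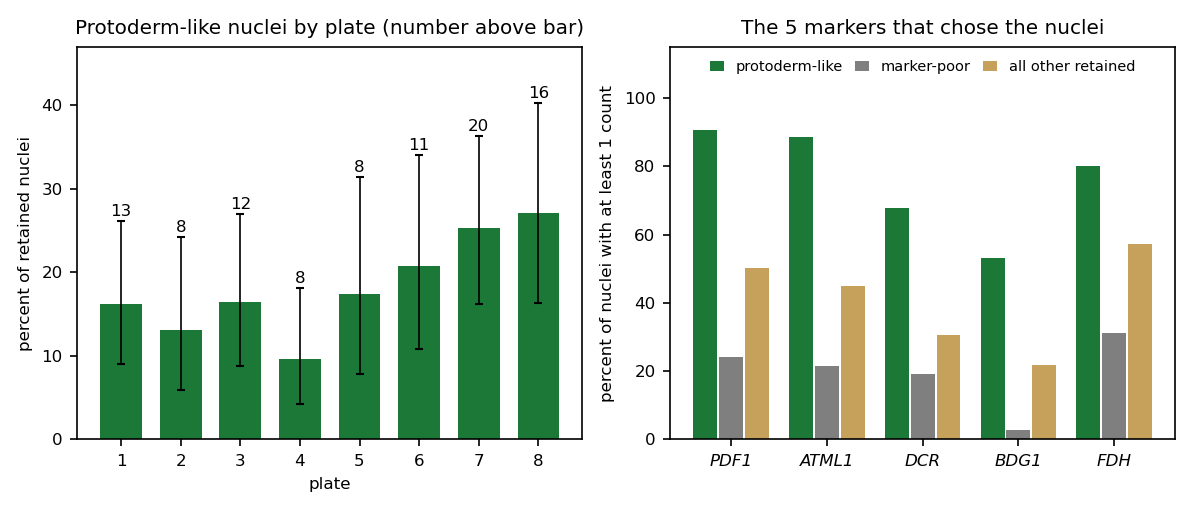
Left: protoderm-like nuclei as a percent of the retained nuclei of each plate, with exact 95% binomial intervals and the number of nuclei. Right: percent of nuclei with at least 1 count of each of the 5 rule genes in protoderm-like, marker-poor and all other retained nuclei. The share ran from 9.64% on plate 4 to 27.1% on plate 8, and BDG1 was the rule gene detected least often in protoderm-like nuclei, at 53.1%.

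Just inside the threshold were 41 nuclei with exactly 3 of the 5 rule genes, while 33 had 4 and 22 had all 5. Just outside were 37 nuclei with 2 that met every exclusion. Of the 249 retained nuclei with at least 3 rule genes, 153 were left out by an exclusion. The rule gene with the highest level was PDF1, detected in 90.6% of protoderm-like nuclei and ranging over plates from 913 to 4857 CPM (counts per 1000000 of all counts), with a median of 1997. ATML1 was detected in 88.5% (plate median 201 CPM), FDH in 80.2% (595 CPM), DCR in 67.7% (230 CPM) and BDG1 in 53.1% (242 CPM). With each nucleus thinned to 100000 counts the shares were 83.3% for PDF1, 82.3% for ATML1, 72.9% for FDH, 60.4% for DCR and 49.0% for BDG1.

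The genes that go with the label were thus detected unevenly from nucleus to nucleus. Of 7 further genes that the study named for protoderm (SCPL25, AT3G13690, AT4G29020, AT5G01870, AT1G04880, PDF2 and KAN1), 28 of the 96 nuclei had counts of 3, 9 had counts of 6 and 6 had none. The study ranked or named these genes with these libraries in view, PDF2 and KAN1 also being known markers from earlier work, so they are not independent evidence for the label. For SCPL25, AT3G13690, AT4G29020, AT5G01870 and AT1G04880 it also reported RNA in situ signal in the protoderm. The AT5G01870 signal was in columella initials too, and that of AT1G04880 was in the upper protoderm. PDF2, the close relative of ATML1, was detected in 76.0% of protoderm-like nuclei. KAN1, which promotes abaxial identity in lateral organs, was detected in 40.6%.

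The first comparison was with marker-poor nuclei, the 116 retained nuclei on all 8 plates that meet every exclusion of the rule but have fewer than 3 of the 5 genes. Counts of each class were summed by plate and tested with edgeR, with plate as a block. In this test 12 genes were higher in protoderm-like nuclei, 0.123% of the 9733 genes tested, and 6 were lower, 0.0616%. The median gene differed by 0.13 on the log2 scale. CPM of tested genes are per 1000000 counts of the nuclear genes in the fit, with edgeR's scaling. The higher genes included those of a lipase, a lipid transfer protein, a fatty acid elongase, a desaturase, an acyl-CoA synthetase and an ABC transporter. A lower sum cannot tell fewer nuclei with a transcript from fewer transcripts per nucleus.

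AT1G71691 stood first. Its level in protoderm-like nuclei was 1743 to 4711 CPM over the 8 plates, with a median of 3307, and in marker-poor nuclei 4.05 to 1892, with a median of 266. It was higher in protoderm-like nuclei on 8 of 8 plates, although the ranges touch, and it was detected in 83.3% of them against 41.4%. The log2 difference was 3.59 ± 0.41 (SE, n = 8 plates, edgeR adjusted p = 9.86e-10).

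LTP3, a lipid transfer protein, ranged from 316 to 1756 CPM (median 858) in protoderm-like nuclei and from 23.1 to 506 (median 157) in marker-poor nuclei. The difference of 2.74 ± 0.52 on the log2 scale had an edgeR adjusted p of 0.00237, and the gene was higher on 8 of 8 plates. LTP6, a second abundant member of the family, gave no such difference. It was detected in 97.9% of protoderm-like and 95.7% of marker-poor nuclei, and its log2 difference was 0.18 ± 0.22 (edgeR adjusted p = 1.00).

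KCS20 encodes a 3-ketoacyl-CoA synthase that elongates very-long-chain fatty acids. Its plate values were 64.1 to 636 CPM (median 263) in protoderm-like nuclei and 0 to 27.0 (median 0.83) in marker-poor nuclei, so that the classes did not overlap. The edgeR adjusted p was 0.00304. The fitted log2 difference of 7.68 ± 1.53 depends on the prior count, because the gene was at or near 0 in marker-poor nuclei of several plates, and the same holds for the other genes below with plates at 0.

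ABCG15, an ABC transporter of the G subfamily, was detected in 66.7% of protoderm-like and 10.3% of marker-poor nuclei. Over plates it ranged from 216 to 1274 CPM (median 733) against 0 to 467 (median 29.9), higher on 8 of 8 plates, with a log2 difference of 4.82 ± 0.97 (edgeR adjusted p = 0.00357). ADS1, a delta-9 desaturase, ranged from 29.5 to 456 CPM (median 218). In marker-poor nuclei it was at 0 on 6 plates and reached 24.7 on the highest (edgeR adjusted p = 0.00528).

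LACS2, a long-chain acyl-CoA synthetase required for cutin, was detected in 43.8% of protoderm-like and 4.31% of marker-poor nuclei. Its plate median was 161 CPM (29.3 to 487) against 0.42 (0 to 60.4), with an edgeR adjusted p of 0.0377. AT3G24250, a glycine-rich protein gene, was higher on 7 of 8 plates, at 270 to 9823 CPM (median 838) against 78.0 to 1008 (median 345), by 2.00 ± 0.39 on the log2 scale (edgeR adjusted p = 0.00252). Its highest value came from plate 4 alone, and without that plate it did not pass the test.

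Of the 12 higher genes, only LTP3, LACS2 and KCS20 are on the lists of lipid transfer, cutin and wax genes. AT1G36060, annotated as an integrase-type DNA-binding protein, reached 80.0 to 1295 CPM (median 402) against 0 to 201 (median 43.6), with an edgeR adjusted p of 0.0261. AT4G11810, an SPX domain transporter gene, had a plate median of 200 CPM against 1.29, and DRB5, a double-stranded RNA binding protein, one of 262 against 0.58. Both passed the test, with edgeR adjusted p of 0.0377 and 0.0457, as did AT4G24050, an oxidoreductase-like gene (0.0415), and NMT1, an N-myristoyltransferase (0.0377). NMT1 was detected in only 16.7% of protoderm-like nuclei and in 0.862% of marker-poor nuclei. It failed the test when any 1 of plates 1 to 7 was left out, and it was not tested without plate 8. Of the 12, AT1G36060, KCS20 and AT4G24050 alone were also higher than in all other retained nuclei. Detection there was 33.8% for AT4G11810 (34.4% in protoderm-like nuclei), 41.1% for ABCG15 (66.7%), 66.9% for AT1G71691 (83.3%) and 73.3% for AT3G24250 (88.5%). ADS1 and LACS2 were seen less often there, at 9.36% and 16.9% against 40.6% and 43.8%.

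**Figure D2:**
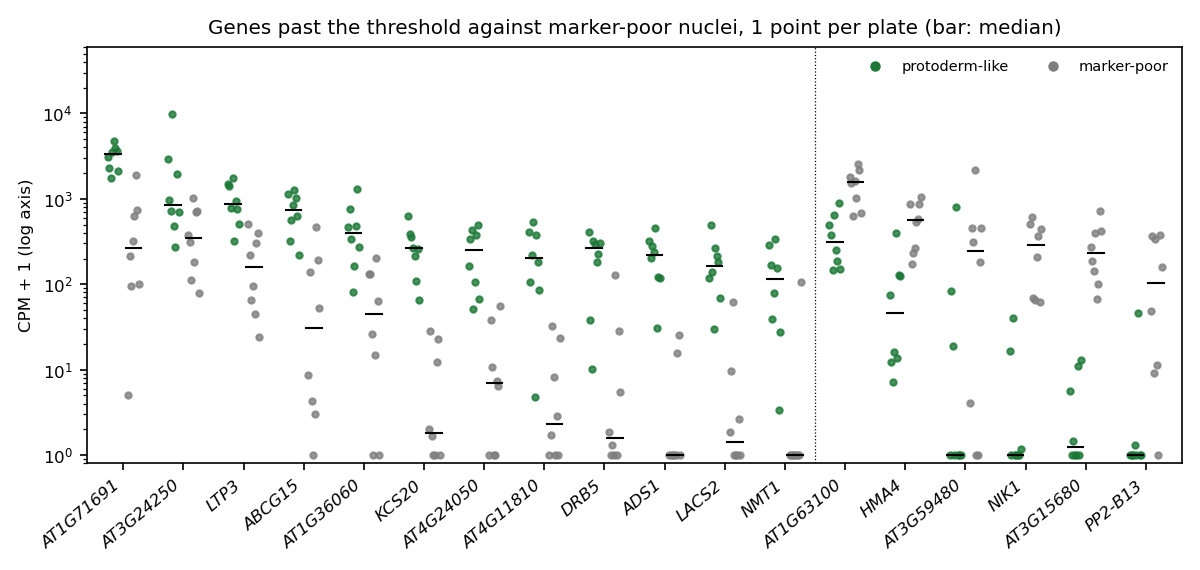
CPM + 1 on a log axis, by plate, of the 12 genes higher and 6 genes lower in protoderm-like than in marker-poor nuclei. Each point is the sum over the nuclei of 1 class on 1 plate. The KCS20 points of the classes do not overlap (64.1 to 636 CPM against 0 to 27.0), while AT1G71691 overlaps on the highest marker-poor plate (1892 CPM).

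The genes lower in protoderm-like nuclei were led by NIK1, a leucine-rich repeat receptor kinase. Its level was 0 to 39.7 CPM in protoderm-like nuclei, with a median of 0, and 61.7 to 617 CPM in marker-poor nuclei, with a median of 286. The classes did not overlap on this gene, and the edgeR adjusted p was 0.000593. AT3G15680, a zinc finger protein gene, did not overlap either, at 0 to 11.8 CPM against 66.4 to 711 (edgeR adjusted p = 0.00161).

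HMA4, a zinc-transporting ATPase known from vascular tissue, had a plate median of 44.4 CPM (6.16 to 400) against 561 (171 to 1048). The log2 difference was -3.65 ± 0.72 (edgeR adjusted p = 0.00304). AT1G63100, a GRAS family transcription factor, was at 147 to 898 CPM (median 313) against 622 to 2564 (median 1566), a difference of -2.05 ± 0.39 (edgeR adjusted p = 0.00237). PP2-B13, a phloem-protein-2-like gene, and AT3G59480, a sugar kinase-like gene, completed the list, with edgeR adjusted p of 0.0269 and 0.0377.

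These calls changed with the plate block and with a limit on features. Without the plate block edgeR called 0 genes higher (118 at an unadjusted p under 0.05) and 0 lower (101), where DESeq2 with the block called 445 and 266. Marker-poor nuclei had a median of 351464 counts and 1837 features against 526446 and 2431.5, and with nuclei limited to at least 2000 features 4 genes were higher and 0 lower (31 at an unadjusted p under 0.05). The part of this depth difference in the result was not otherwise tested, but with all nuclei thinned to 100000 counts the 12 higher genes passed again, among 18, and 4 of the 6 lower ones, among 8. PP2-B13 and AT3G59480 were not among these. AT1G71691, LTP3, ABCG15 and KCS20 of the 12 higher genes, and AT1G63100, HMA4 and NIK1 of the 6 lower, passed whichever plate was left out.

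Among regulators, the HD-ZIP IV family had 7 members tested, none of which passed, with a median log2 difference of 1.90 against 0.13 over all genes. PDF2 was higher on 7 of 8 plates, at 124 to 1279 CPM (median 432) against 0 to 732 (median 155), with an edgeR adjusted p of 0.684. HDG12, another member, gave 3.23 ± 1.58 (edgeR adjusted p = 1.00). MYB96 and MYB94 activate wax synthesis in the epidermis. MYB96 had 2701 counts in protoderm-like nuclei, spread at 5.48 to 235 CPM over the 8 plates, and 1 count in marker-poor nuclei, with an edgeR adjusted p of 0.0746. MYB94 was detected in 27.1% of protoderm-like and 4.31% of marker-poor nuclei. Of the 8 cuticle transcription factors listed, 3 were tested, 0 passed and 2 lay above the median gene, while 4 had no count in protoderm-like nuclei. The summed levels of the list overlapped, at 30.5 to 442 CPM over plates (median 185) against 4.30 to 345 (median 123).

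Among cutin genes, 11 of 18 were tested and LACS2 alone passed, while 10 of the 11 lay above the median gene and their median log2 difference was 2.75. Their summed level was 569 to 2063 CPM over plates in protoderm-like nuclei (median 1319) and 168 to 514 in marker-poor nuclei (median 322), so the sums did not overlap. HTH, an oxidoreductase of cutin synthesis whose loss fuses organs, was higher on 8 of 8 plates, at 143 to 1255 CPM (median 257) against 0 to 99.7 (median 43.6). Its log2 difference of 3.60 ± 0.91 missed the threshold (edgeR adjusted p = 0.0682). ABCG11, a transporter of cutin and wax precursors, gave 2.75 ± 1.04 (edgeR adjusted p = 0.902), and CYP86A2, a fatty acid hydroxylase, 0.69 ± 0.97 (edgeR adjusted p = 1.00).

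Of 19 genes for wax and very-long-chain fatty acids, 9 were tested, KCS20 passed and the median was 0.66. CER6, the main elongase of stem wax, had a mean of 77.4 CPM against 5.00 and did not pass (edgeR adjusted p = 1.00). Of 10 lipid transfer protein genes, 6 were tested and LTP3 passed, with a median of 2.48. LTPG1, a lipid transfer protein anchored at the cell surface, had 481 CPM on average against 114 (edgeR adjusted p = 0.771).

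Receptor and protease genes of embryonic epidermal signalling showed no gene past the threshold among 7 tested, with a median of 0.62. GSO1 and GSO2, receptor kinases that guard the continuity of the embryonic cuticle, gave 3.76 ± 1.30 and 4.32 ± 1.43 on the log2 scale, with edgeR adjusted p of 0.645 and 0.50. ACR4, a receptor kinase of the outer layer, gave -0.23 ± 2.37, and DEK1, a calpain that is needed for epidermal fate, 0.42 ± 0.58 (both edgeR adjusted p = 1.00). None of these 4 genes was called, and the estimates of ACR4 and DEK1 were smaller than their errors.

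The 7 genes that the study named had 0 calls, 6 of them at an unadjusted p under 0.05 where 2.05% of all genes tested were higher at that level, and a median of 2.84. Because the study named them with these libraries in view, although PDF2 and KAN1 were known markers, this count is no separate support. SCPL25, a serine carboxypeptidase-like gene, was at 106 to 479 CPM (median 251) against 0 to 132 (median 4.23), higher on 8 of 8 plates, with an edgeR adjusted p of 0.0534. AT4G29020, a glycine-rich protein gene, was at 91.4 to 461 CPM (median 271) against 0 to 91.4 (median 7.54), also on 8 of 8 plates, with an edgeR adjusted p of 0.0746. KAN1 was at 44.1 to 390 CPM (median 212) against 0 to 21.6 (median 4.83), without overlap, with an edgeR adjusted p of 0.108. These 3 genes were thus higher on every plate without passing the test over all genes.

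**Figure D3:**
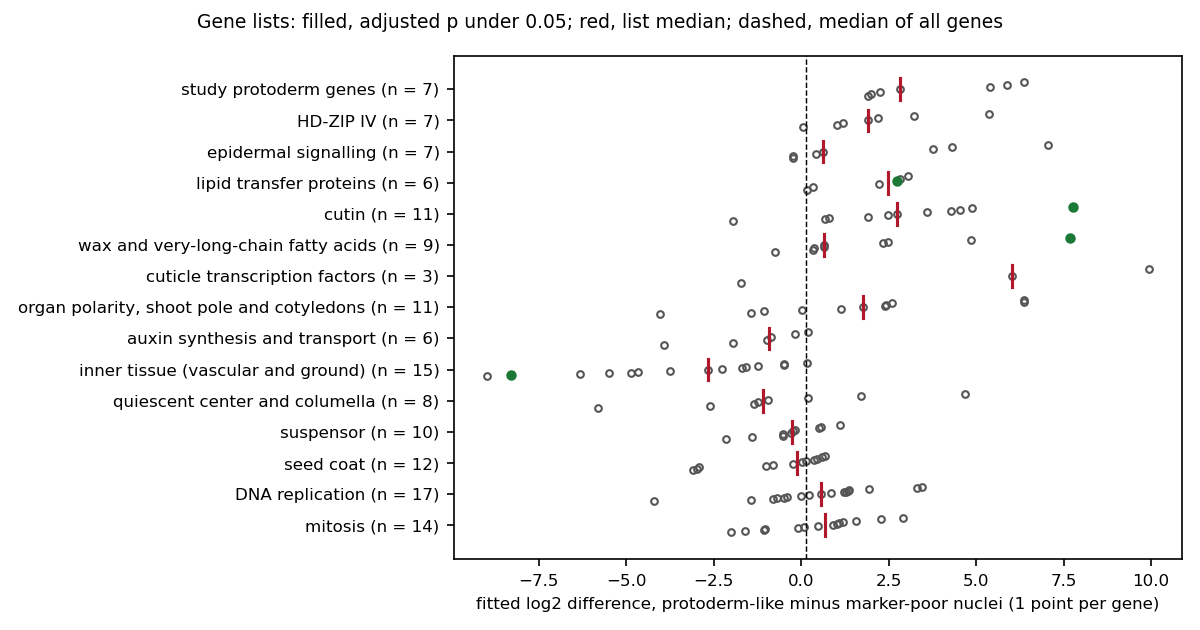
Log2 difference of protoderm-like from marker-poor nuclei for each tested gene of the lists, with filled points for edgeR adjusted p under 0.05, a red bar for the median of the list and a dashed line for the median of all genes (0.13). The cutin list has a median of 2.75 and 1 filled point, and the inner tissue list a median of -2.66 and 1 filled point.

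Of the lists for other cell types, inner tissue had 1 call against marker-poor nuclei, while suspensor had 0 of 10 tested (0 at an unadjusted p under 0.05, median -0.27) and quiescent center and columella 0 of 8 (2 lower at that level, median -1.08) by edgeR. Of 24 genes of inner tissue, vascular and ground, 15 were tested, 14 of them below the median gene, and AT3G15680 was the 1 that passed, while 8 were lower at an unadjusted p under 0.05, where 1.39% of all genes tested were. The study chose AT3G15680 and AT3G15720 of this list for RNA in situ hybridization by their expression in these libraries. The call is therefore no separate support, and the count is partly drawn from these data. The list's summed level was 642 to 2066 CPM over plates in protoderm-like nuclei (median 892) and 1414 to 3717 in marker-poor nuclei (median 2502), with 4 genes of the list at 0 in all protoderm-like nuclei. AGO10, an Argonaute of the provascular and adaxial domains, was at 44.9 to 455 CPM (median 91.6) against 221 to 1342 (median 423), lower on 6 of 8 plates, with an edgeR adjusted p of 0.235. HAN, a GATA factor of the inner cells of the embryo proper, gave -5.50 on the log2 scale (edgeR adjusted p = 0.0512).

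Seed coat genes were a different case. Their summed level was 844 to 3396 CPM (median 2072) in protoderm-like and 1033 to 5017 (median 1736) in marker-poor nuclei, with none of the 18 at 0 and none of 12 tested past the threshold. Endosperm genes summed to 9.06 CPM or less in protoderm-like nuclei, with 3 of 7 at 0. The part of seed coat RNA in the results was not tested.

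Regulators of stomata were detected unequally. SPCH, which starts the stomatal lineage, and MUTE, which acts later in it, had counts in 0 of the 96 nuclei, as did BASL and EPF2. A count of 0 allows up to 3.12% of nuclei with a read, and does not limit the share that express a gene, since even BDG1 was seen in 53.1%. FAMA, which completes guard cells, had counts in 2.08%, and ICE1, the broadly expressed partner of these factors, in 42.7%. GL2, a regulator of trichomes and root hairs, differed by 1.19 ± 2.14 on the log2 scale from marker-poor nuclei (edgeR adjusted p = 1.00).

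Some genes outside the rule were detected more often with more rule genes and others were not, which is a description, since the rule genes share libraries and depth with them. With every nucleus thinned to 100000 counts, AT1G71691 was detected in 25.6%, 22.5% and 45.9% of marker-poor nuclei with 0, 1 and 2 rule genes, and in 73.2%, 81.8% and 90.9% of protoderm-like nuclei with 3, 4 and 5. ADS1 was at 2.56%, 2.5% and 10.8%, then 19.5%, 33.3% and 77.3%. KAN1 went from 0% through 5.00% and 8.11% to 31.7%, 33.3% and 54.5%. KCS20 was level within protoderm-like nuclei, at 26.8%, 21.2% and 27.3% with 3, 4 and 5 rule genes, and so was AT4G11810, at 31.7%, 33.3% and 31.8%. LTP3 (80.5%, 63.6% and 95.5%), PDF2 (65.9%, 57.6% and 100%) and LACS2 (34.1%, 24.2% and 63.6%) were, of these 3 classes, lowest at 4. AT1G63100 stayed between 36.4% and 47.5% over all 6 classes, while its summed level was lower in protoderm-like nuclei. The classes also differed in depth before thinning, with median features of 2295, 2141 and 2718 at 3, 4 and 5 rule genes.

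**Figure D4:**
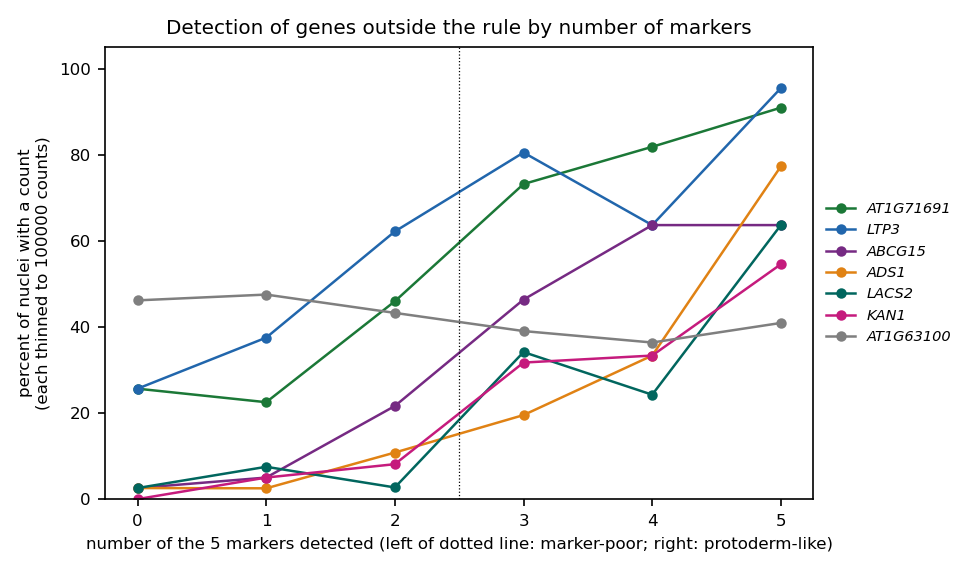
Percent of nuclei with at least 1 count after thinning to 100000 counts, for 7 genes outside the rule, by the number of rule genes detected (0 to 5, where 0 to 2 are marker-poor and 3 to 5 protoderm-like nuclei). AT1G71691 goes from 25.6% at 0 to 90.9% at 5 rule genes, and AT1G63100 from 46.2% to 40.9%.

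Protoderm-like nuclei were next set against the 38 nuclei on 7 plates that meet the rule in all but TPX2. Plate 4 held no such nucleus and dropped out of the fit with its 8 protoderm-like nuclei. TPX2 is made before and during mitosis, so the direction of mitotic genes follows from how the nuclei were chosen. In edgeR 8 genes were higher in protoderm-like nuclei, 0.101% of the 7921 genes tested, and 29 were lower, 0.366%, while the median gene differed by 1.04 on the log2 scale.

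Genes of cell division were among the lower genes. FZR3, an activator of the anaphase-promoting complex, was at 0 to 501 CPM (median 20.6) in protoderm-like nuclei and at 0.62 to 5227 (median 3268) in TPX2-positive nuclei. CDC20.2, another activator, was at 0 to 113 CPM (median 31.7) against 83.8 to 2992 (median 1031), lower on 7 of 7 plates. MAD2, of the spindle checkpoint, was at 0 to 293 CPM (median 0.52) against 330 to 1126 (median 590), without overlap. Their edgeR adjusted p were 8.51e-16, 0.000124 and 0.000207. KN, the syntaxin of the cell plate, CYCB1;2, a mitotic cyclin, and CSLD5, a cellulose synthase-like protein of dividing cells, were lower too, with edgeR adjusted p of 0.00700, 0.0260 and 0.00373.

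AT1G63100 again separated the nuclei. It was at 154 to 932 CPM (median 264) in protoderm-like nuclei and at 1887 to 17945 (median 6040) in TPX2-positive nuclei, with no overlap and a log2 difference of -4.44 ± 0.38 (edgeR adjusted p = 2.91e-27). It was thus lower than in both comparison classes, and both share the protoderm-like nuclei. Of the 30 mitosis genes listed, 21 were tested and 5 were lower, with a median of -4.69. Against marker-poor nuclei, which have no TPX2 count either, 14 were tested in edgeR. Of these, 0 were lower at an unadjusted p under 0.05, where 1.39% of all genes tested were. Their median log2 difference there was 0.69, against 0.13 over all genes. The list summed to 284 to 1070 CPM over plates (median 682) in protoderm-like and 226 to 778 (median 438) in marker-poor nuclei.

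Genes of DNA replication and chromatin assembly were among the higher ones. FAS1, a subunit of the chromatin assembly factor that follows the replication fork, was at 255 to 724 CPM (median 323) in protoderm-like nuclei. In TPX2-positive nuclei it was at 0 on 5 of 7 plates and at 386 on the highest (edgeR adjusted p = 0.00353). MCM5, of the replicative helicase, was at 158 to 494 CPM (median 294) against 0 to 252 (median 0), with an edgeR adjusted p of 0.0340. HMGB6, an HMG-box chromatin protein, was at 0.88 to 1393 CPM (median 761) against 0 to 342 (median 16.1), higher on 6 of 7 plates (edgeR adjusted p = 0.00122). FAS1 and MCM5 were detected in 43.8% and 38.5% of protoderm-like, 37.9% and 37.1% of marker-poor and 7.89% and 10.5% of TPX2-positive nuclei. Against marker-poor nuclei the DNA replication genes had 0 of 17 tested past the threshold and a median log2 difference of 0.57. How far the division by TPX2 sets the direction of these genes was not tested.

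The other 5 higher genes were ALY1, a homolog of a subunit of cell cycle repressor complexes, ASY3, a protein of the meiotic chromosome axis, AT1G75150, a DNA ligase-like gene, AT1G21740 and AT3G01516. ALY1 had 4799 counts in protoderm-like nuclei and 2 in TPX2-positive nuclei, a depth-scaled ratio of 987 (95% counting interval 273 to 8150). The interval covers counting error only, and reads are not independent molecules. ALY1 was detected in 26.0% of all 96 protoderm-like nuclei and in 5.26% of the 38 TPX2-positive nuclei. Its edgeR adjusted p was 0.0373, but it failed the test without plate 2, 3, 5, 6, 7 or 8. Of the 18 DNA replication genes, 14 were tested, all 14 lay above the median gene and MCM5 passed, with a median of 6.48.

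None of the 8 higher genes passed whichever plate was left out. Without plate 3, edgeR called 0 genes higher (353 at an unadjusted p under 0.05), and without plates 7 or 8 it called 1, where DESeq2 on all plates called 946. Of the 29 lower genes, 10 passed whichever plate was left out, among them AT1G63100, FZR3, CDC20.2, MAD2, IMK2 and 3xHMG-box2. The comparison class has 38 nuclei in all, and with equal numbers of nuclei drawn on each plate 1 gene was higher and 29 were lower.

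**Figure D5:**
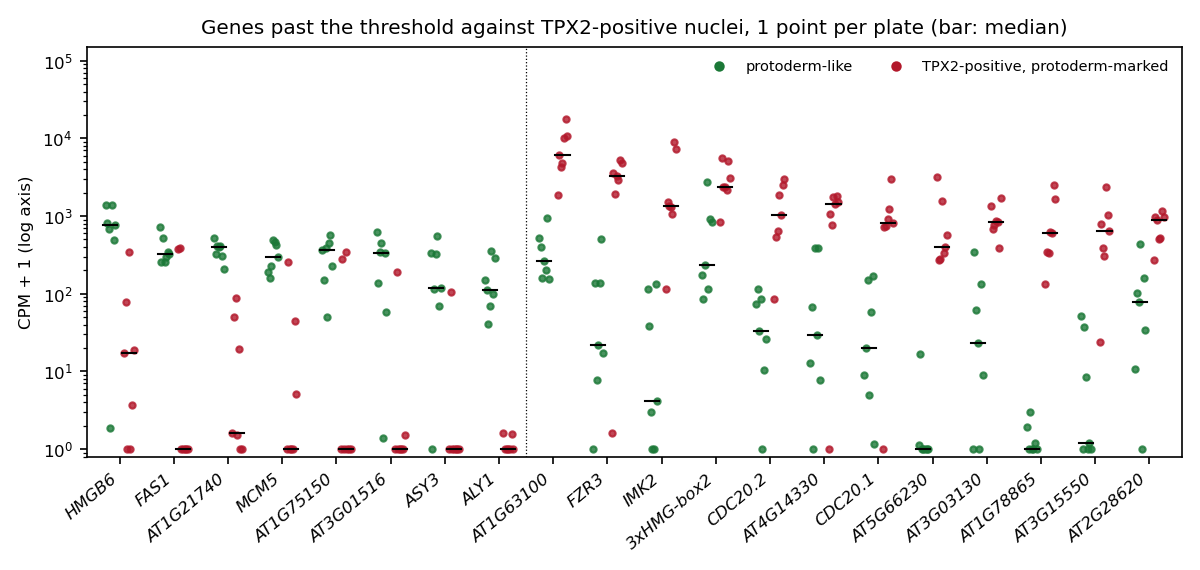
CPM + 1 on a log axis, by plate, of the 8 genes higher and of 12 of the 29 genes lower in protoderm-like nuclei than in TPX2-positive protoderm-marked nuclei, over the 7 plates with both. The AT1G63100 points do not overlap (154 to 932 CPM against 1887 to 17945), while FAS1 points of TPX2-positive nuclei lie at 0 on 5 plates.

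No epidermal list had a gene past the threshold in the comparison with TPX2-positive nuclei. None of the 12 genes higher than in marker-poor nuclei was called here either. KCS20, AT1G71691, LTP3, LACS2, DRB5, AT4G24050 and AT3G24250 were detected more often in TPX2-positive nuclei (KCS20 in 42.1%, against 26.0% of all 96 protoderm-like nuclei). ABCG15, ADS1, AT1G36060, AT4G11810 and NMT1 were detected less often there (ADS1 in 31.6% against 40.6%). The genes that the study named had a median log2 difference of 0.48, cutin genes 0.09 and lipid transfer proteins 0.48, against 1.04 over all genes. PDF2 was at 130 to 1347 CPM (median 475) in protoderm-like and 209 to 1494 (median 693) in TPX2-positive nuclei, with a log2 difference of -0.16 ± 0.76. DWF4, which encodes the rate-limiting hydroxylase of brassinosteroid synthesis, was detected in 80.7% and 81.6%. With 7 plates these intervals are wide and do not show that the classes were alike.

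Protoderm-like nuclei without TPX2 still differed among themselves in replication genes. Counts of at least 9 of the 18 DNA replication genes were found in 19 of the 96 nuclei (19.8%), on 7 plates with 0 to 4 per plate. Among marker-poor nuclei this held for 11 of 116 (9.48%), among TPX2-positive nuclei for 2 of 38 (5.26%) and among all other retained nuclei for 38 of 438 (8.68%). After thinning to 100000 counts the shares were 16.7%, 8.62%, 2.63% and 6.85%. The 19 nuclei had a median of 2828 features against 2295 in the remaining protoderm-like nuclei, and the part of this in the count was not tested beyond the thinning. At least 15 of 30 mitosis genes were seen in 1 of the 96 protoderm-like nuclei and in 16 of the 38 TPX2-positive nuclei.

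Against all 438 other retained nuclei, 5 genes were higher in protoderm-like nuclei, 0.034% of the 14711 genes tested, and 328 were lower, 2.23%. The other nuclei include those that the exclusions removed, and they are more numerous. The median gene lay at -1.85 on the log2 scale, at -0.12 without the plate block on the same nuclei (5 genes higher and 56 lower) and at -0.23 with equal numbers of nuclei (1 higher and 8 lower). The cause of this shift was not tested. The 5 higher genes are DWF4, AT1G36060, KAN1, KCS20 and AT4G24050.

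DWF4 was at 387 to 1417 CPM (median 811) in protoderm-like nuclei and 194 to 274 (median 254) in the others, without overlap and higher on 8 of 8 plates. The log2 difference was 1.62 ± 0.34, or 3.47 relative to the median gene (edgeR adjusted p = 0.00955). It was detected in 80.2% of protoderm-like nuclei and 45.7% of the others. Against marker-poor nuclei DWF4 was likewise higher on 8 of 8 plates, at 433 to 1581 CPM (median 861) against 75.1 to 426 (median 306), but did not pass (edgeR adjusted p = 0.125).

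AT1G36060 was at 73.1 to 1161 CPM (median 381) against 10.1 to 99.5 (median 41.9), by 3.1 ± 0.59 on the log2 scale (edgeR adjusted p = 0.00322). It was the only one of the 5 that passed with equal numbers of nuclei, where DWF4 had an adjusted p of 0.0815 and KAN1 of 0.335. KAN1 was at 40.7 to 350 CPM (median 189) against 1.91 to 52.9 (median 11.8), by 3.74 ± 0.90 (edgeR adjusted p = 0.0274). KCS20 was at 57.2 to 632 CPM (median 238) against 12.2 to 116 (median 39.7), higher on 7 of 8 plates (edgeR adjusted p = 0.0463). AT4G24050 was at 45.8 to 443 CPM (median 232) against 6.88 to 42.1 (median 27.4), with an edgeR adjusted p of 0.0469. DWF4 and AT1G36060 passed whichever plate was left out, KAN1 failed without plate 2, 4, 5 or 7, and KCS20 and AT4G24050 passed only when plate 8 was the one left out.

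The direction of genes that mark the excluded nuclei follows from the rule. Without the nuclei marked by the 4 small-protein genes or by CLSY1 and DML3, 11 genes were lower, 9 of them among the 328, and 1 was higher that was not among the 5, but this also left 206 of the 438 other nuclei, so the effect of the exclusions and that of the number of nuclei cannot be told apart. Of the 328, 23 had no count in any protoderm-like nucleus. RLP15, a receptor-like protein, had 0 counts against 26834, at least 1969-fold lower in reads when 3 counts over the group are taken as the floor. This bound covers counting error only, and reads are not independent molecules: they came from 10.3% of the other nuclei, where 0 of 96 allows up to 3.12%. NAC015, a transcription factor known from the root cap, and WOX11, a homeobox gene of adventitious roots, were detected in 7.99% and 8.90% of the other nuclei and in 0 protoderm-like nuclei. In marker-poor nuclei, which no exclusion removed, WOX11 was detected in 13.8% and NAC015 in 0.862%.

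Markers of the basal embryo were among them. Of 15 suspensor genes tested 4 were lower, and of 11 quiescent center and columella genes 4, where 2.23% of all genes tested were, among them WIP4, a zinc finger protein of the root pole, and NTT, its relative. SDT, CEP1 and BGLU17 of the first list, and AT2G42660 and GH3.2 of the second, were also among the lower genes. The study chose these for RNA in situ hybridization by their expression in these libraries, so the counts are no separate support. PIN7, the auxin efflux carrier of the suspensor and basal domain, was at 0.44 to 315 CPM (median 4.97) in protoderm-like nuclei against 116 to 387 (median 212), by -5.23 on the log2 scale (edgeR adjusted p = 0.0130). CEP1, a cysteine protease, gave -8.10 (edgeR adjusted p = 0.00777), and CDC20.1 and CDC20.2 were lower as in the comparison with TPX2-positive nuclei. Among 34 lower genes that were followed individually, 18 passed whichever plate was left out.

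Epidermal lists had few calls against all other nuclei, where other nuclei include those with epidermal markers that the exclusions removed. The median log2 difference was 0.08 for cutin genes, -0.13 for lipid transfer proteins and -0.12 for HD-ZIP IV genes, against -1.85 for all genes. PDF2 was at 114 to 1144 CPM (median 397) against 251 to 679 (median 352), a log2 difference of 0.07 ± 0.37 whose sign changed under other settings. DNA replication genes had 0 of 18 past the threshold with a median of 0.55, 15 of them above the median gene.

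Measures outside the genes tested were compared by exact two-sided permutation of the class labels within plates, for 12 comparisons. The ribosomal DNA spacer transcript AT3G06355 took 3.06% to 24.3% of counts in protoderm-like nuclei (median 11.3%) and 1.97% to 15.7% (median 7.98%) in all others, with an exact p of 0.0469 and 0.188 after Benjamini-Hochberg adjustment. Mitochondrial transcripts took 3.22% to 14.5% and chloroplast transcripts 1.83% to 5.20% of counts in protoderm-like nuclei, with exact p of 0.336 and 0.102 against all others. None of these differences passed after adjustment.

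Matches to the L1 box were counted beside these results, as a description. Of the 12 genes higher than in marker-poor nuclei AT1G71691 alone held one (8.33%), where 4.86% of the genes tested did. Of 198 genes with a window that were higher at an unadjusted p under 0.05, 11.1% held one, and of 134 that were lower, 5.97%. Against all other nuclei 2.17% of 46 such higher genes held one, where 4.98% of the genes tested did. Against TPX2-positive nuclei 5.43% of 387 such higher genes held one, where 4.92% of the genes tested did. Of the 7 genes that the study named, 0 did, and of the 5 genes higher than in all other nuclei, 0 did. No match says only that these letters are not in this window.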

How the data were processed

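The authors sorted single nuclei into wells, made Smart-seq2 libraries and, per the submitters' processing notes and the methods, trimmed reads with cutadapt 2.6 and quantified them with kallisto on TAIR10 transcripts. They deposited, for each of 8 plates, whole-number estimated counts per gene and nucleus without normalization. How transcripts were summed and rounded is not given in the sources used here. Tables of index sequences were not used. Nuclei with at least 100000 counts and 1000 features were retained. No doublet caller was run, 0 nuclei had identical counts and 0 names were shared between plates.

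Counts of each class were summed by plate over 31217 nuclear polymerase II genes (78.2% of counts), without the 13 rule genes and without features within 10000 bases of rRNA genes. The sums entered the two-sided quasi-likelihood test of edgeR 4.0.16 in R 4.3.3 (TMM factors, genes kept by filterByExpr), with plate as a block, since both sums of a plate share its library preparation, and with Benjamini-Hochberg adjustment at 0.05. CPM of tested genes are scaled within each comparison, while CPM of rule genes, sGFP and list sums are of all counts, so values of the same nuclei differ slightly between comparisons. Standard errors were taken from the fitted log2 difference and the F statistic. Alternatives were DESeq2 1.42.0, limma 3.58.1 on log2(mean CPM + 1), other filters, thinning, other rule limits and leaving out each plate. The tests were tried on simulated counts. Python 3.11.15, pandas 2.3.3, scipy 1.17.1 and matplotlib 3.10.9 did the rest.

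The nuclei, the 17 gene lists and the alternatives were chosen with earlier results of these data known. Equal numbers of nuclei, and the comparison without nuclei marked by the small-protein genes or by CLSY1 and DML3, were added after seeing the files. Genes were named by rule: the rule genes and the study's 7 genes, the largest differences in each direction past the threshold with at least 20 CPM and 1 direction on nearly all plates, and genes of the lists. Genes past the threshold that fall outside this rule were chosen after their values were seen. Gene names and coordinates come from RefSeq TAIR10.1, which matched 32222 of 33668 features.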

Additional observations from a re-analysis of the deposited data

Results flagged for a closer look

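Plate 5 stood apart in sGFP, the transcript of the sorting transgene. Protoderm-like nuclei of that plate had 1110 CPM of sGFP, and the next highest plate had 193. Plate 4 stood apart in AT3G24250, with 9823 CPM in protoderm-like nuclei against 2913 on the next plate. They were 2 of 22 groups of plates examined in this way. The limit used gives about 1 in 20 by chance for normally distributed values, which CPM sums of few nuclei need not be. AT1G36060, KCS20 and AT4G24050 entered once for each of 2 comparisons, so the groups are not all separate.

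The sGFP reads lie outside the genes tested. Protoderm-like nuclei had 8842 of them, above the limit of 3 that a count of 0 allows, and 20 of the 96 nuclei (20.8%) had at least 1, against 12.3% of all other retained nuclei. Over plates the level was 0 to 1110 CPM (median 108) in protoderm-like nuclei and 9.78 to 117 (median 41.1) in all others, higher on 6 of 8 plates (exact permutation p = 0.0312, 0.188 after Benjamini-Hochberg adjustment over 12 comparisons).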

How the results depend on the processing

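Values of named genes kept their direction and their side of the threshold in 1499 cases, lost the threshold in 483, gained it in 29 and reversed in 8. The reversals against all other nuclei were AT3G13690 with 4 markers needed (-1.20) and PDF2 (0.07 as reported) without a filter (-0.019), thinned (-0.022), with at least 2000 features (-0.083), without seed-coat-marked nuclei (-0.046) and without plate 1 or 2, over a range of -0.073 to 0.24 for all plates left out. Against marker-poor nuclei AT3G13690 reversed with 4 markers needed (-0.54). None of these was past the threshold, and the cause was not tested.

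The other counts of called genes that moved by over 1.5 times are given by comparison. Against all other nuclei, higher (5) became 87 with DESeq2, 10 thinned, 19 with limma, 3 with at least 2000 features, 2 with 4 markers needed, 1 with equal numbers and 1 without nuclei marked by the small-protein genes or CLSY1 and DML3, and lower (328) became 5055 with DESeq2, 565 without a filter, 1157 with limma, 2723 with 4 markers, 186 with detection from 2 counts, 175 with the rule on thinned counts, 158 without seed-coat-marked nuclei, 8 with equal numbers and 11 without both kinds of marked nuclei. Against marker-poor nuclei, higher (12) became 445 with DESeq2, 24 with limma, 4 with at least 2000 features, 1 with 4 markers, 4 with detection from 2 counts and 6 with the rule on thinned counts, and lower (6) became 266, 13 without a filter, 10 with limma, 0 with at least 2000 features (31 unadjusted) and 14 with 4 markers. Against TPX2-positive nuclei, higher (8) became 946 with DESeq2, 3 without a filter, 4 with at least 2000 features, 1 with 4 markers, 14 with the rule on thinned counts and 1 with equal numbers, and lower (29) became 178 with DESeq2 and 11 with 4 markers.

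Without the plate block, which pairs both sums of a plate, the counts were 5 higher and 56 lower against all others, 0 and 0 against marker-poor nuclei (118 and 101 unadjusted) and 2 and 9 against TPX2-positive nuclei. Leaving out each plate in turn gave 2 to 7 higher and 52 to 291 lower against all others, 6 to 15 and 4 to 10 against marker-poor nuclei, and 0 to 11 and 13 to 52 against TPX2-positive nuclei. With 4 markers needed 55 nuclei remained in place of 96.

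With 8 to 20 nuclei per plate, genes found in few nuclei carry wide errors, and a gene that missed the threshold is not shown to be equal. Fitted differences of genes with plates at 0 depend on the prior count.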

Other observations

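Organ polarity and shoot pole genes were listed as well, 23 in all, and 11 were tested against marker-poor nuclei with 0 past the threshold by edgeR (2 higher and 1 lower at an unadjusted p under 0.05) and a median log2 difference of 1.77. Their summed level was 681 to 1249 CPM over plates (median 881) in protoderm-like nuclei and 168 to 1385 (median 711) in marker-poor nuclei. Against all other nuclei 12 were tested and KAN1 passed. Auxin synthesis and transport genes had a median of -0.93 against marker-poor nuclei, with 0 of 6 past the threshold and 1 of 6 above the median gene.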
